A study of Mus musculus with 2 samples.

Results

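Epithelial cells with a high level of *Cdkn1a* and little transcript of the usual lineage markers were described in single-cell RNA-seq of mouse ileal enteroids, the budding 3D structures that intestinal crypts form in Matrigel. *Cdkn1a* encodes p21, an inhibitor of cyclin-dependent kinases. A cell was taken as *Cdkn1a*-high without lineage markers when it held at least 5000 unique molecular identifiers (UMIs, each counting 1 captured transcript) and passed limits set per 10000 UMIs of that cell. These limits were at least 3 of *Cdkn1a*, under 5 of the stem cell marker *Olfm4*, under 8 of the summed cycling genes *Mki67*, *Top2a*, *Cenpf*, *Ccnb1* and *Cdc20*, under 50 of the goblet marker *Tff3*, under 20 of the Paneth marker *Lyz1*, under 5 of the enterocyte marker *Apoa1*, and under 10 of the summed enteroendocrine genes *Chga*, *Chgb*, *Cpe* and *Neurod1*. The members were thus chosen by measured transcript levels of these genes, and their levels of them are a description. In all, 340 of 4374 cells met the limits, 137 of 2563 in the control library and 203 of 1811 in the *Taf4*IEC library.

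Both libraries were grown from crypts of the ileum of mice aged 4 months and of the mixed strain C57Bl6/129sv and were captured on day 8 of culture after sorting of live cells. *Taf4*IEC enteroids carried floxed alleles of *Taf4*, whose protein is part of TFIID, a complex of general transcription. They also carried a tamoxifen-inducible Cre recombinase under the villin promoter, which is active in the intestinal epithelium. To inactivate *Taf4* they received 1 µM 4-hydroxytamoxifen (4-OHT) for 3 days from day 5. For the control library the label names WT enteroids with ethanol, whereas the methods of the study give *Taf4* lox/lox enteroids with 4-OHT, so that its treatment is not settled. How many mice gave each library is not given in the sources used here. There was 1 library per condition, so genotype, treatment and library cannot be told apart and no test between conditions was possible, and every 95% interval below (exact Poisson for levels, Clopper-Pearson for shares, conditional binomial for ratios) covers counting error only. Transcripts of *Taf4* itself were sparse in the *Cdkn1a*-high cells, with 13 UMIs (0.0476 per 10000) in the control and 55 (0.0764) in *Taf4*IEC cells, and these 3′ counts do not separate a recombined allele from an intact one.

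The protein p53 binds DNA as a tetramer after DNA damage and other stress and switches on *Cdkn1a* together with genes of feedback, apoptosis and repair. In the intestine p21 is also made in cells that leave the crypt and stop dividing as they differentiate, so a high level of *Cdkn1a* alone does not tell these settings apart. The other genes taken as markers were *Ccng1* (cyclin G1), *Phlda3* (an inhibitor of AKT signalling) and *Gdf15* (a secreted stress cytokine). All of them are known p53 targets, and how far they set the cells apart is described below.

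The DNA letters through which p53 can reach such genes are shown first, because the target genes are the group the results return to. The p53 full site consists of 2 half-sites of 10 bases, each with a C at position 4 and a G at position 7, separated here by at most 1 base. It was searched in RefSeq promoter windows of GRCm38.p6 from 250 bases before to 50 bases after annotated starts, of which a gene can have several. The site is its own reverse complement, so reading 1 strand covers both. Of 44 p53 target genes, counting *Cdkn1a*, 35 had a window. The windows of 3 of them held a site with at most 1 mismatch to the consensus, against 0.13% of all 27025 genes, and those of 4 held one with at most 2 mismatches, against 0.807%. They lie at chr17:29090928-29090947 (*Cdkn1a*, plus strand, 1 mismatch, first base 51 bases before the start), chr11:40755462-40755481 (*Ccng1*, minus strand, 1 mismatch, 195 bases before), chr9:66946296-66946315 (*Rps27l*, plus strand, 1 mismatch, 117 bases before an annotated start that lies inside the gene) and chr7:45467079-45467099 (*Bax*, minus strand, 2 mismatches and a spacer of 1 base, 201 bases before). They are written 5′ to 3′ with the C and G of each half-site in capitals.
*Cdkn1a*: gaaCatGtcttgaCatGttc
*Ccng1*: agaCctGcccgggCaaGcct
*Rps27l*: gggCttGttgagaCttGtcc
*Bax*: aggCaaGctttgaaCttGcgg
The *Cdkn1a* start used above is the most upstream annotated start of the gene, at base 29090979. A match of letters is a description and not a measured binding site.

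*Cdkn1a*-high cells without lineage markers made up 137 of 1988 control cells with at least 5000 UMIs (6.89%, 5.82 to 8.09) and 203 of 758 *Taf4*IEC cells (26.8%, 23.7 to 30.1). The difference was 19.9 percentage points (16.5 to 23.4). Among the cells that passed every limit other than that on *Cdkn1a*, the share was 18.2% (15.5 to 21.2) of 752 control cells and 65.9% (60.3 to 71.2) of 308 *Taf4*IEC cells. Cells under every limit other than that on *Cdkn1a* were 37.8% and 40.6% of the cells with at least 5000 UMIs, with overlapping intervals, so the libraries differed in how many of these cells carried *Cdkn1a*. Over all captured cells the shares were 5.35% and 11.2%, since 77.6% of control but 41.9% of *Taf4*IEC cells reached 5000 UMIs. The same *Cdkn1a* level was also met by cells above a lineage limit. Of cells with at least 5 *Olfm4*, 8 of 610 control cells (1.31%) and 29 of 99 *Taf4*IEC cells (29.3%) had it, and of cells above the limit on cycling genes, 20 of 301 and 16 of 39. Of cells with at least 5 *Apoa1*, 80.2% of control and 81.6% of *Taf4*IEC cells had it. For cells above the *Tff3* limit the shares were 30.0% (24.2 to 36.4) and 58.6% (49.8 to 67.1), and above the *Lyz1* limit 24.2% (14.5 to 36.4) and 63.9% (51.7 to 74.9). The intervals of the 2 libraries therefore lay apart in the stem, cycling, goblet and Paneth classes, and the shares lay within each other's intervals in enterocytes and enteroendocrine cells (47.6% and 49.0%).

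**Figure D1:**
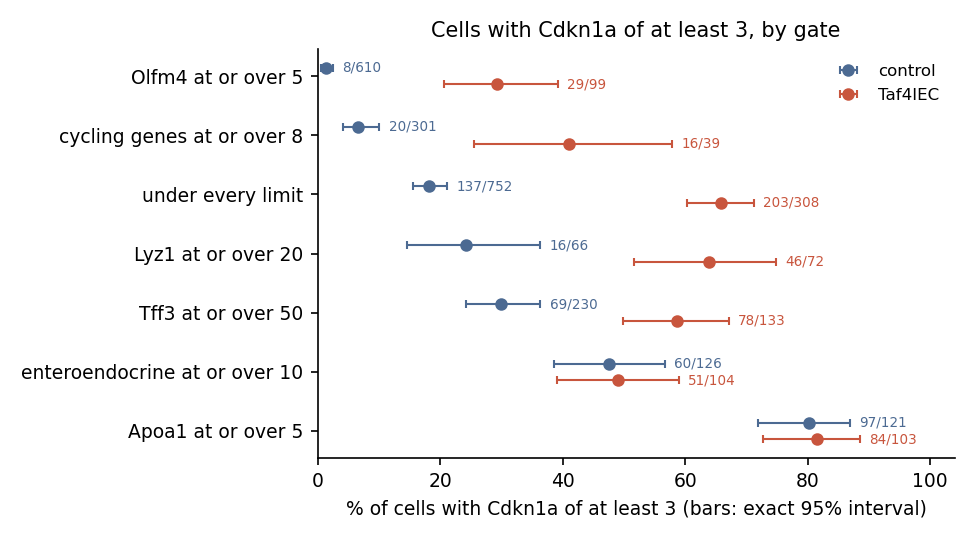
Percent of cells with at least 3 *Cdkn1a* UMIs per 10000 (horizontal axis) in each class of cells with at least 5000 UMIs (rows), for the control (blue) and *Taf4*IEC (red) library, with exact 95% intervals and the cell counts. The libraries are far apart for *Olfm4* cells (1.31% and 29.3%) and for cells under every limit (18.2% and 65.9%), and close for *Apoa1* cells (80.2% and 81.6%).

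The level of *Cdkn1a* in the members, which the rule fixed to be high, ran from 3.02 over a median of 4.48 to 26.1 per 10000 in control cells and from 3.01 over 5.75 to 33.8 in *Taf4*IEC cells. At least 8 per 10000 were reached by 20 control and 65 *Taf4*IEC members. There was no gap at the limit. In the control library 31 cells lay from 2.5 to under 3 and 36 from 3 to under 3.5, and in the *Taf4*IEC library 21 and 17. In these control cells *Ccng1* was 0.463 per 10000 just outside the limit and 0.767 just inside it. In the *Taf4*IEC cells *Ccng1* was 3.09 just outside and 2.87 just inside. The cells thus form one end of a continuous range, and for *Ccng1* the library separated these cells more than the limit did.

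**Figure D2:**
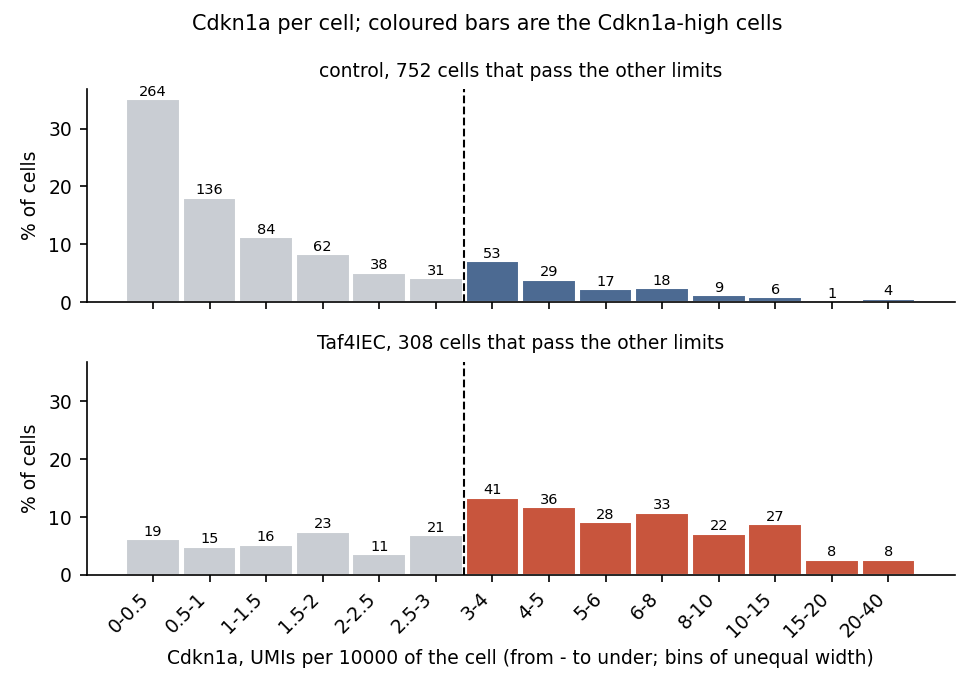
Percent of cells (vertical axis, cell numbers above the bars) by level of *Cdkn1a* (horizontal axis, bins of unequal width) among the 752 control and 308 *Taf4*IEC cells that passed all other limits. The dashed line marks 3 per 10000, and the coloured bars to its right hold the 137 and 203 members, with no gap at the line.

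Members of the *Taf4*IEC library held more UMIs per cell, which does not tell sequencing depth from RNA content. Their median was 37240 UMIs (5487 to 61712) and 5015 genes per cell, against 19813 UMIs (5541 to 36502) and 3455 genes in control members. The control file held no cell with 5000 or more genes, whereas 103 of 203 *Taf4*IEC members had as many. The median share of mitochondrial UMIs was 8.01% in control and 9.0% in *Taf4*IEC members, and what part depth or cell quality had in the differences below was not tested. Of the 9 immune and 8 mesenchymal or endothelial marker genes, 5 and 3 were listed in the files, and members held 6 immune UMIs and 1 UMI of the others in the control and 26 and 1 in *Taf4*IEC cells, with *Cd3e*, *Cd79a*, *Col1a1* and *Pdgfra* at 0 in both. The doublet predictor marked too few cells to have worked, and none of the members. There were 2 cell barcodes that occurred in both libraries, neither of them of a member.

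The rule kept its own lineage genes low in these cells, but enterocyte genes outside the rule were not low, so the cells are called *Cdkn1a*-high below. A list of 35 enterocyte genes, which left out *Apoa1*, stood at 86.2 per 10000 in control members and at 32.6 in the 615 *Cdkn1a*-low cells of the same library, which passed the same limits but had under 3 *Cdkn1a*. In the *Taf4*IEC library the list stood at 86.8 in members and at 49.8 in 105 *Cdkn1a*-low cells. Single members differed widely. The list had a median of 41.3 in control members with 13 and 239 as the 10th and 90th percentile, and a median of 36.4 with 14.1 and 182 in *Taf4*IEC members. Cells with at least 5 *Apoa1* that passed the other lineage and cycling limits at any level of *Cdkn1a* (115 control and 102 *Taf4*IEC cells, called *Apoa1*-high) had 377 and 397. Under 40 of this list were 68 of 137 control members and 103 of 203 *Taf4*IEC members, so the members range from cells with few enterocyte transcripts to cells with many.

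In the *Taf4*IEC library 68 of 4936 genes (1.38%) were at least 2-fold higher in *Cdkn1a*-high than in *Cdkn1a*-low cells and 52 (1.05%) at least 2-fold lower, counting those with 200 or more UMIs in the pair of classes and leaving out the genes of the rule. In the control library these were 151 (2.69%) and 162 (2.89%) of 5610 genes. Of 27 measured enterocyte genes, 9 were at least 2-fold higher in *Taf4*IEC and 14 in control members, and none at least 2-fold lower, with a median log2 ratio of 0.72 and 1.28 beside -0.06 and -0.05 over all genes. *Sis*, the brush border sucrase-isomaltase, stood at 6.70 in control members against 2.62 in *Cdkn1a*-low cells, and at 6.19 against 2.80 in the *Taf4*IEC library (log2 ratios 1.36 and 1.14). *Prap1*, a secreted protein of enterocytes, stood at 14.3 against 3.53 in control cells and at 6.58 against 3.21 in the *Taf4*IEC library. *Krt20*, a keratin of differentiated villus cells, had a log2 ratio of 2.34 (1.99 to 2.69) in control cells and 0.67 (0.36 to 0.99) in the *Taf4*IEC library. *Fabp1*, a fatty acid binding protein, stood at 9.86 against 2.78 in control cells and at 4.61 against 0.407 in the *Taf4*IEC library, where however 84.0% of its UMIs in members came from 5 cells and the log2 ratio turned to -0.12 with a *Cdkn1a* minimum of 5. Without cells of at least 40 of the enterocyte list the *Taf4*IEC ratio of *Prap1* turned to -0.45. The transcription factor genes *Cdx1* and *Cdx2* had log2 ratios of -0.58 and -0.32 in control cells and -0.55 and -0.42 in *Taf4*IEC cells, unlike most of the enterocyte list.

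Stem cell and replication genes were lower in the members, although neither list was part of the rule. The 18 stem cell genes other than *Olfm4* summed to 9.04 per 10000 in control members and 16.0 in *Cdkn1a*-low cells, and to 10.6 and 15.2 in the *Taf4*IEC library. The interval lay below 0 for 10 of 14 measured ones in the control, against 27.0% of all genes, and for 9 of 12 in the *Taf4*IEC library, against 26.6%, where it lay above 0 for 1. *Lgr5*, the receptor that marks crypt base stem cells, stood at 0.710 against 1.62 in the control (log2 ratio -1.19, -1.41 to -0.98) and at 0.955 against 1.39 in the *Taf4*IEC library (-0.54, -0.71 to -0.37). The BMP co-receptor *Rgmb* had log2 ratios of -1.37 and -0.93, and the ion transporter *Slc12a2* of -0.88 and -0.55. Cells with at least 5 *Olfm4* that passed the other lineage and cycling limits are called *Olfm4*-high (484 control and 81 *Taf4*IEC cells). Members held less *Lgr5* than these (2.28 and 2.68) and more than the *Apoa1*-high cells (0.0628 and 0.00961). The *Cdkn1a*-low cells (1.62 and 1.39) also lay between these 2 classes, and the limits on *Olfm4* and *Apoa1* set all of the classes.

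The 24 replication genes, among them the MCM helicase and the sliding clamp, summed to 4.28 in control members against 10.2 in *Cdkn1a*-low cells and to 2.86 against 8.09 in the *Taf4*IEC library. Of the measured ones, 19 of 22 in the control and 7 of 9 in *Taf4*IEC cells were at least 2-fold lower in the members, against 2.89% and 1.05% of all genes, with medians of -1.30 and -1.34. *Mcm3* stood at 0.146 against 0.502 in the control and at 0.110 against 0.428 in the *Taf4*IEC library. *Pcna* was at 0.381 against 0.710 in the control and at 0.325 against 0.644 in the *Taf4*IEC library. Of the mitosis genes that the rule did not use, 5 of 13 and 4 of 7 were at least 2-fold lower, against the same 2.89% and 1.05%, and none at least 2-fold higher. *Stmn1*, a regulator of microtubules, had a log2 ratio of -0.82 in the control and -1.81 in *Taf4*IEC cells, and the chromatin protein gene *Hmgb2* of -1.03 and -1.44. The control ratio of *Stmn1* was 0.0023 without cells of at least 40 of the enterocyte list. Since the cells above the limit on 5 cycling genes were left out of both classes, these ratios describe what remains below it.

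Among genes of the passage from G1 to S phase, *Cdkn2b* (p15, an inhibitor of CDK4 and CDK6) was higher where *Cdkn1a* was. It stood at 0.596 in control members against 0.173 in *Cdkn1a*-low cells, and at 0.329 against 0.134 in the *Taf4*IEC library (log2 ratios 1.78, 1.47 to 2.09, and 1.30, 0.83 to 1.80). *Cdk4* was lower in members, with log2 ratios of -0.52 and -0.80. The D-type cyclins, which activate CDK4 and CDK6, went opposite ways in the libraries. *Ccnd1* had a log2 ratio of -0.65 (-0.99 to -0.33) in control cells and 0.20 (0.06 to 0.34) in the *Taf4*IEC library, and *Ccnd2* of -0.28 (-0.39 to -0.16) and 0.47 (0.39 to 0.54). The *Ccnd1* direction in the *Taf4*IEC library turned to -0.27 without cells of 5000 or more genes, and both control ratios turned, to 0.31 and 0.25, without cells of at least 40 of the enterocyte list.

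The p53 targets were examined in 3 groups, with *Cdkn1a* left out. Between *Cdkn1a*-high and *Cdkn1a*-low cells of one library they differed little. Of 23 measured targets in the *Taf4*IEC library, the interval of the log2 ratio lay above 0 for 15 and below 0 for 2, against 17.3% and 26.6% of all genes, and the median was 0.43. Of 18 in the control library it lay above 0 for 12 and below 0 for 2, against 20.8% and 27.0%, with a median of 0.28. Few targets reached 2-fold. In the *Taf4*IEC library these were *Gdf15* (higher) and *Gadd45g* (lower), and in the control library *Gadd45a* and *Ephx1* (both higher).

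Of the marker genes, *Ccng1* stood at 0.739 in control members and 0.604 in *Cdkn1a*-low cells, and at 3.16 and 2.46 in the *Taf4*IEC library. The log2 ratios were 0.29 (0.06 to 0.52) and 0.36 (0.25 to 0.48). *Phlda3* stood at 0.348 and 0.289 in the control, with an interval of the ratio from -0.08 to 0.60 that included 0, and at 1.23 and 0.844 in the *Taf4*IEC library (0.54, 0.34 to 0.74). *Gdf15* stood at 1.17 and 0.962 in the control (0.28, 0.10 to 0.46) and at 3.25 and 1.51 in the *Taf4*IEC library (1.11, 0.97 to 1.25). In control cells none of the 3 other marker genes thus had a log2 ratio above 0.29. With a *Cdkn1a* minimum of 5 the control ratios turned to -0.13 for *Ccng1* and -0.86 for *Gdf15*, and with mitochondrial and ribosomal genes out of the total that of *Ccng1* was -0.022.

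*Mdm2*, the ligase that degrades p53, stood at 0.253 against 0.178 in the control and at 0.596 against 0.349 in the *Taf4*IEC library, with log2 ratios of 0.51 and 0.77, of which the control one turned to -0.071 with a *Cdkn1a* minimum of 5. *Bax*, which permeabilises mitochondria in apoptosis, stood at 1.82 against 1.61 in the control and at 4.05 against 3.89 in the *Taf4*IEC library, where the interval (-0.04 to 0.15) included 0, and the control ratio of 0.18 turned to -0.048 with the smaller total. *Trp53* itself, which encodes p53, was lower in members, at 0.370 against 0.784 in the control and at 0.492 against 0.750 in the *Taf4*IEC library.

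Between libraries the p53 targets differed more. Within the *Cdkn1a*-high cells, 155 of 4642 genes (3.34%) were at least 2-fold higher in the *Taf4*IEC than in the control library and 78 (1.68%) at least 2-fold lower, and the median of all genes was 0.15. Of 23 measured targets, 13 were at least 2-fold higher and 2 at least 2-fold lower, and their median was 1.15. By group the medians were 1.22 for arrest and feedback genes, 0.99 for apoptosis genes and 1.44 for repair and metabolism genes. *Ccng1* had a log2 ratio of 2.10 (1.89 to 2.31), *Phlda3* of 1.82 (1.51 to 2.14), *Gdf15* of 1.47 (1.30 to 1.65), *Mdm2* of 1.24 (0.87 to 1.63) and *Bax* of 1.15 (1.01 to 1.29). These are the genes of several arms of the response, from the feedback on p53 to apoptosis.

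Targets with few UMIs in control members had the widest intervals. The endonuclease gene *Ercc5* stood at 0.0622 in control and 0.347 in *Taf4*IEC members (log2 ratio 2.48, 1.77 to 3.28), the kinase gene *Plk2* at 0.132 and 0.553 (2.07, 1.58 to 2.60), and *Trp53inp1*, a cofactor of p53 and of autophagy, at 0.135 and 0.527 (1.96, 1.47 to 2.49). *Rps27l*, a ribosomal protein gene of the p53 response, stood at 8.57 and 15.5 (0.86, 0.79 to 0.92). Against this direction, the growth arrest genes *Gadd45a* and *Gadd45g* stood at 1.34 and 0.516 in control members and at 0.542 and 0.133 in *Taf4*IEC members. The plot of levels in members shows the intervals of the libraries apart for most of the list.

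**Figure D3:**
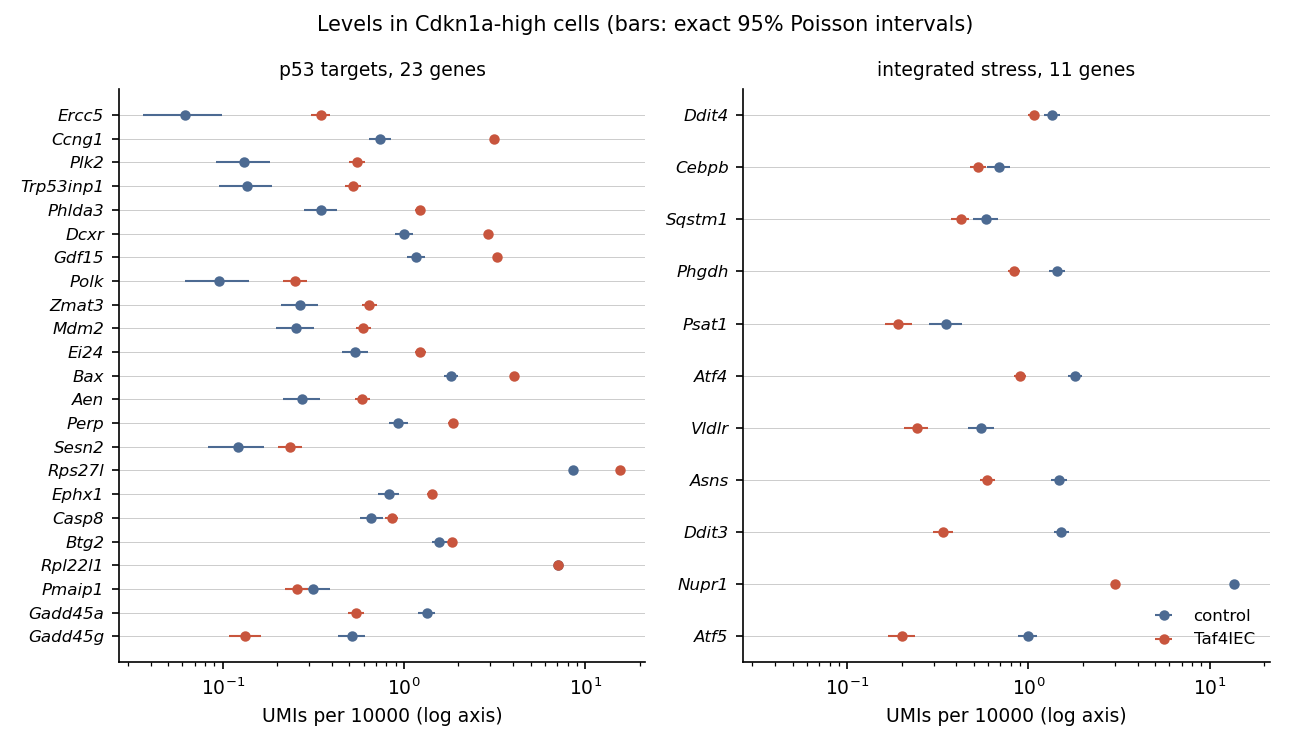
Level (UMIs per 10000, log axis) of 23 p53 target genes (left) and 11 genes of the integrated stress response (right) in the *Cdkn1a*-high cells of the control (blue, 137 cells) and *Taf4*IEC (red, 203 cells) library, with exact 95% Poisson intervals, ordered by the ratio of the libraries. *Ccng1* (0.739 and 3.16) lies near the top on the left, *Gadd45g* (0.516 and 0.133) at its foot, and all 11 stress genes are lower in the *Taf4*IEC library.

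The difference in p53 targets was also present outside the *Cdkn1a*-high cells. The *Cdkn1a*-low cells share no cells with the members but were set by the other side of the same *Cdkn1a* limit. Of this class 69 of 615 control and 32 of 105 *Taf4*IEC cells held from 2 to under 3 *Cdkn1a*. In it 7 of 19 measured targets were at least 2-fold higher in the *Taf4*IEC library, against 2.1% of all genes. None was at least 2-fold lower, against 1.37% of all genes, and the median was 0.91 beside 0.18 over all genes. *Ccng1* stood at 0.604 and 2.46 there, and at 0.444 and 1.97 in *Olfm4*-high cells. Whether the difference between libraries was larger in members than in the other cells was not tested. Depth differed between the libraries in every class. Leaving out cells of 5000 or more genes removed cells of the *Taf4*IEC library only, of whose members 100 were left. The median over the targets in members was then 0.99. With each cell thinned to 5000 UMIs it was 0.98.

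Along the range of *Cdkn1a* the summed level of the p53 targets gives a different picture with and without *Rps27l* and *Rpl22l1*, the most abundant of them. The sum over 43 genes stood at 31.1 in control cells with under 1 *Cdkn1a* and at 31.6 in those with at least 8, and at 42.1 and 53.3 in the *Taf4*IEC library. Without these 2 ribosomal genes, a choice made after their values were seen, it went from 10.4 (10.1 to 10.6) to 18.7 (17.2 to 20.2) in control cells and from 17.5 (16.6 to 18.3) to 31.8 (31.1 to 32.5) in the *Taf4*IEC library. *Rpl22l1* was lower in members of both libraries (log2 ratios -0.56 and -0.41). The intervals of the *Taf4*IEC cells with under 1 *Cdkn1a* and of the control cells with at least 8 thus overlapped.

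Single genes followed *Cdkn1a* in different ways. *Ccng1* went from 1.66 (1.40 to 1.94) to 2.81 between the lowest and the next range in *Taf4*IEC cells and lay from 2.73 to 3.22 in the ranges above, whereas in control cells it stayed from 0.534 to 0.837 in all 6 ranges. *Gdf15* stood at 0.829 in the lowest and 4.75 (4.48 to 5.03) in the highest range of the *Taf4*IEC library, and at 0.830 and 0.659 in the control. The course between these ends was not steady. From 3 to under 5 *Cdkn1a* it stood at 2.92 in *Taf4*IEC and 1.54 in control cells, and from 5 to under 8 at 2.04 and 0.528. *Areg*, a ligand of the EGF receptor, was higher in each range than in the one below it in *Taf4*IEC cells, from 1.52 to 14.9, and stood at 1.09 and 6.86 at the ends of the control range. The enterocyte list stood at 24.0 and 138 at the ends of the control range and at 34.6 and 99.4 in the *Taf4*IEC library, and the replication list at 11 and 2.16, and at 11.5 and 1.79. The highest control range held 20 cells, with a median of 14780 UMIs.

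**Figure D4:**
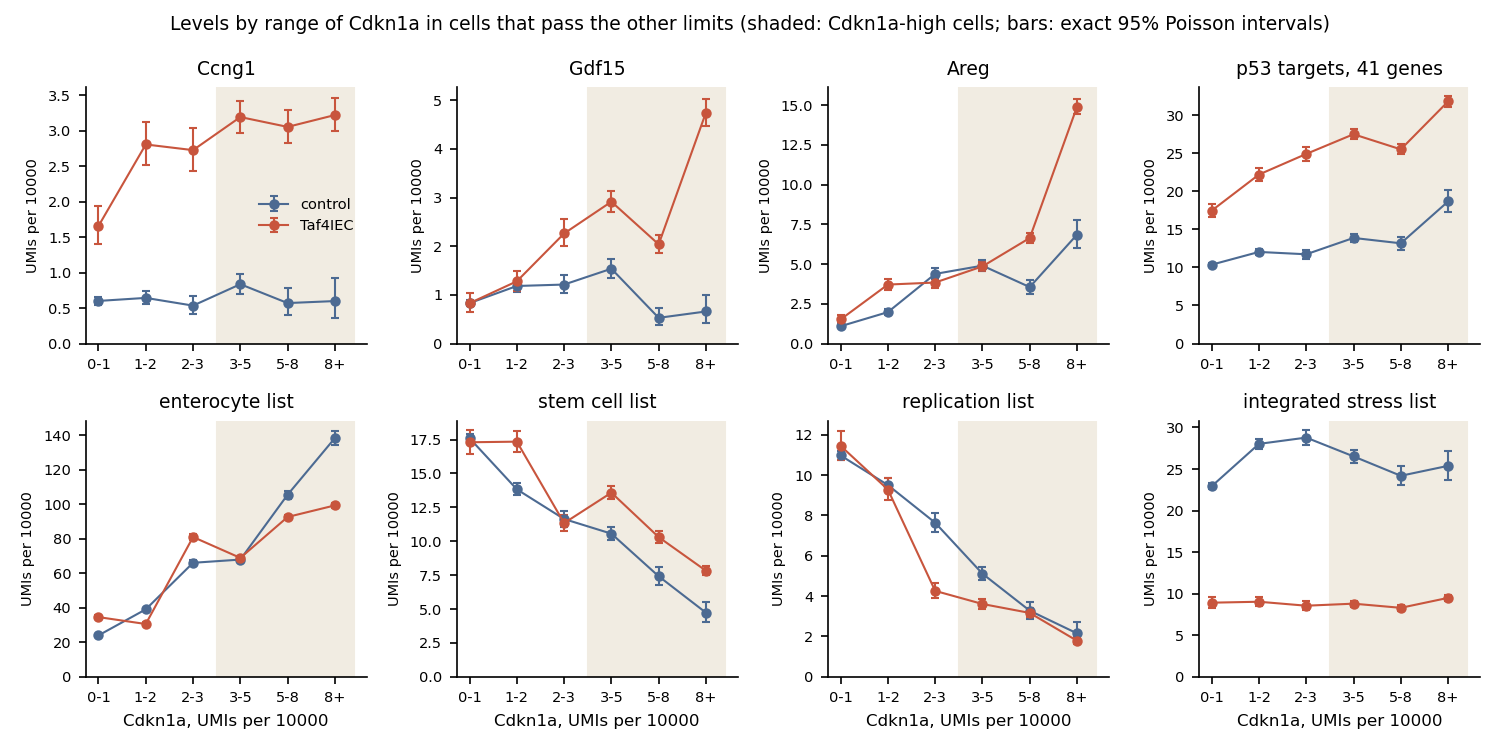
Level (UMIs per 10000, vertical axes from 0) of 3 genes and 5 summed lists by range of *Cdkn1a* (horizontal axis, UMIs per 10000) in cells that passed the other limits, for the control (blue) and *Taf4*IEC (red) library with exact 95% Poisson intervals. The shaded ranges hold the members. The enterocyte list is higher and the stem cell and replication lists are lower towards high *Cdkn1a* in both libraries, while *Ccng1* and the stress list separate the libraries in every range.

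Across the member cells themselves, stem cell and enterocyte lists were opposed, with a Spearman correlation of -0.77 over 137 control and -0.71 over 203 *Taf4*IEC cells. The p53 targets without *Rps27l* and *Rpl22l1* correlated with the enterocyte list at -0.31 and -0.51 and with the stem cell list at 0.27 and 0.38, and with *Cdkn1a* at 0.12 and 0.14. *Cdkn1a* correlated with the enterocyte list at 0.27 and 0.26. Cells of 1 library share their capture and differ in depth, so these values are descriptions. Over all 752 control and 308 *Taf4*IEC cells that passed the other limits, where *Cdkn1a* was not restricted to its upper range, these targets correlated with *Cdkn1a* at 0.30 and 0.28, with the enterocyte list at 0.11 and -0.31 and with the stem cell list at -0.12 and 0.18. The control values for the lists thus had the opposite sign to those within the members.

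Without the cells of at least 40 of the enterocyte list, an alternative chosen after the values were seen, 68 of 1669 control cells (4.07%) and 103 of 437 *Taf4*IEC cells (23.6%) were *Cdkn1a*-high. The median over the p53 targets between *Cdkn1a*-high and *Cdkn1a*-low cells was then 0.62 in the control and 0.51 in *Taf4*IEC cells, and that between libraries within members 1.22. The excess of members in the *Taf4*IEC library therefore remained among cells with few enterocyte transcripts.

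Of 10 measured genes that are known from regenerating or fetal-like intestinal epithelium, 2 were at least 2-fold higher in *Taf4*IEC members (*Areg* and the tissue factor gene *F3*), against 1.38% of all genes, with a median of 0.64. Of 7 in the control library 4 were, against 2.69%, with a median of 1.08. The interval lay above 0 for 8 and 6 of them, against 17.3% and 20.8% of all genes. It lay below 0 for 1 in each library, against 26.6% and 27.0%. *Areg* stood at 4.79 against 1.69 in the control and at 8.81 against 3.15 in the *Taf4*IEC library. *Krt19*, a keratin of simple epithelia, stood at 9.65 against 6.84 in the control and at 25.6 against 17.2 in the *Taf4*IEC library, a log2 ratio between libraries of 1.41 (1.35 to 1.47) within members. *Anxa2* had log2 ratios of 1.08 and 0.67. *Clu*, which marks revival stem cells, had 5 UMIs in control and 16 in *Taf4*IEC members. *Ly6a* (Sca-1) was at 0.465 in control members, all from 5 cells, and at 0.974 in 62 *Taf4*IEC members. *Sprr1a* had 281 UMIs in control members, all from 2 cells, against 2 UMIs in *Cdkn1a*-low cells. Its log2 ratio of 9.21 describes these 2 member cells.

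The genes of the integrated stress response, in which ATF4 raises amino acid and survival genes, were lower in *Taf4*IEC members. For all 11 measured genes the interval of the log2 ratio between libraries lay below 0, against 15.1% of all genes, and 5 were at least 2-fold lower, with a median of -1.0. *Nupr1* stood at 13.7 in control and 2.99 in *Taf4*IEC members (log2 ratio -2.20, -2.27 to -2.12), *Ddit3* (CHOP) at 1.52 and 0.338, *Atf4* at 1.80 and 0.902, and *Asns*, asparagine synthetase, at 1.47 and 0.593. In *Cdkn1a*-low cells 7 of 13 measured genes were at least 2-fold lower, against 1.37% of all genes, with a median of -1.06, so this difference too was present outside the members. Within a library the list differed less, with medians of 0.29 in control and 0.00362 in *Taf4*IEC cells. *Nupr1* had log2 ratios of -0.03 and -0.05 between *Cdkn1a*-high and *Cdkn1a*-low cells, with intervals that included 0. *Ddit3* stood at 1.52 against 0.607 in the control and at 0.338 against 0.149 in the *Taf4*IEC library, and its control ratio turned to -0.041 without cells of at least 40 of the enterocyte list.

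Most glycolysis and immediate early genes were also higher in *Cdkn1a*-high than in *Cdkn1a*-low cells of both libraries. The interval lay above 0 for 15 of 18 glycolysis genes in the control and for 13 of 18 in *Taf4*IEC cells against 20.8% and 17.3% of all genes, and below 0 for none, with medians of 0.35 and 0.28. *Gapdh* stood at 69.7 against 39.7 in the control and at 63.9 against 41.8 in the *Taf4*IEC library. For immediate early genes the interval lay above 0 for 8 of 12 and 8 of 11, against the same 20.8% and 17.3%. It lay below 0 for 2 and 1, against 27.0% and 26.6% of all genes. Their medians were 0.37 in the control and 0.68 in *Taf4*IEC cells. *Junb* stood at 1.89 against 1.27 in the control and at 1.82 against 0.805 in the *Taf4*IEC library. Subunits of the Polycomb repressor PRC2 had an interval below 0 for 5 of 8 genes in either library, against 27.0% and 26.6% of all genes, none of them 2-fold lower, with *Ezh2* at 0.443 against 0.786 in the control and at 0.482 against 0.707 in the *Taf4*IEC library.

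**Figure D5:**
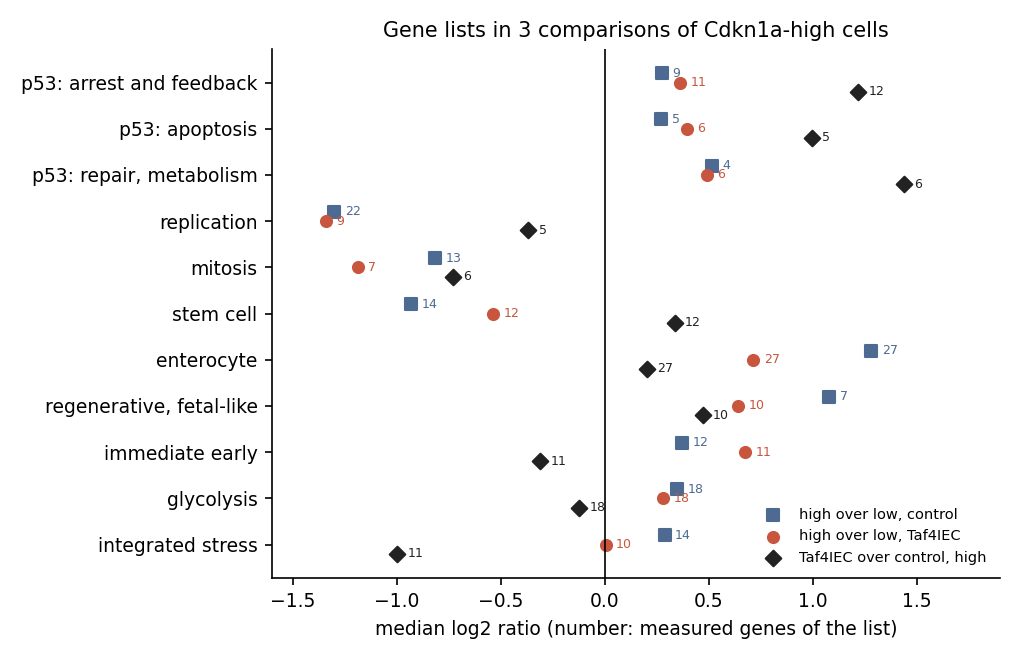
Median log2 ratio (horizontal axis) over the measured genes of 11 lists (rows, number of genes beside each point) for *Cdkn1a*-high over *Cdkn1a*-low cells in the control (blue squares) and *Taf4*IEC (red circles) library and for *Taf4*IEC over control within *Cdkn1a*-high cells (black diamonds). Within libraries the enterocyte list is highest in the control (1.28) and the replication list lowest (-1.30 and -1.34), while between libraries the p53 groups are highest (0.99 to 1.44) and the stress list lowest (-1.0). The medians of all genes were -0.05, -0.06 and 0.15.

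Secretory transcripts outside the rule were spread unevenly over the members. The 21 Paneth and goblet genes summed to a median of 2.49 per 10000 over control and 2.59 over *Taf4*IEC members, and of them *Spink4* was seen in 106 control and 187 *Taf4*IEC members. The tuft list had medians of 1.52 and 1.31, mostly from *Cd24a*, a surface protein also found outside tuft cells, seen in 114 and 182 members. *Dclk1* and *Trpm5*, which mark tuft cells, were seen in 1 and 4 control and in 3 and 6 *Taf4*IEC members, and the goblet mucin gene *Muc2* in 4 and 16. *Neurog3*, which marks precursors of enteroendocrine cells, had 273 UMIs in 18 control members and 102 UMIs in 3 *Taf4*IEC members. The limit on *Chga*, *Chgb*, *Cpe* and *Neurod1* thus left a few cells with an early enteroendocrine transcript among the members.

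In the *Taf4*IEC library the 10 genes with the highest ratio of *Cdkn1a*-high to *Cdkn1a*-low cells were *Mt4*, *Fabp1*, *Cyp2c29*, *Ces1d*, *Gstm3*, *Slc10a2*, *Nefm*, *Ces1f*, *Gm26917* and *Gstm1*, with log2 ratios from 3.88 (*Mt4*) to 1.76 (*Gstm1*). Most encode enzymes or transporters of absorptive cells (cytochrome P450, carboxylesterases, glutathione transferases and the ileal bile acid transporter), and several belong to families of near copies whose reads can be shared. Of the UMIs of *Mt4* and *Nefm* in members, 62.2% and 100% came from 5 cells. *Gm26917*, an RNA gene of unsettled function, had a log2 ratio of 1.91 that turned to -0.0068 with at least 10000 UMIs per cell. The 10 lowest were *Pclaf*, *Neurog3*, *Lig1*, *Mcm3*, *Mcm7*, *Selenom*, *Rrm1*, *Stmn1*, *Hells* and *Birc5*, from -2.58 (*Pclaf*) to -1.65 (*Birc5*), of which most act in DNA replication or division.

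Within *Cdkn1a*-high cells the 10 genes highest in the *Taf4*IEC over the control library were *Rnaset2b*, *Tnfrsf18*, *Anpep*, *Alox12b*, *Tstd1*, *Crip2*, *Itln1*, *Ptp4a3*, *Sft2d1* and *Eif3j2*, from 5.23 (*Rnaset2b*) to 2.78 (*Eif3j2*). *Rnaset2b* stood at 0.00732 and 0.275 in members and at 0.00694 and 0.346 in *Cdkn1a*-low cells, so the difference was present in both classes. Its reads may be shared with the near copy *Rnaset2a*. *Anpep*, the brush border aminopeptidase N, stood at 0.0256 in control and 0.548 in *Taf4*IEC members, and 58.1% of the latter UMIs came from 5 cells. The 10 lowest were *Bex1*, *Gm10260*, *Insm1*, *Nrn1*, *Sprr1a*, *H2-T3*, *Spp2*, *Apoa4*, *Adh1* and *Fbp1*. *Bex1*, an adaptor of signalling, had 673 UMIs in control and 0 in *Taf4*IEC members, where a floor of 3 counts over the class gives a log2 ratio of -9.21 as a bound. Among *Cdkn1a*-low cells its counts were 5266 and 0. *Gm10260*, a gene model that resembles a ribosomal protein gene, stood at 6.19 and 0.00834 in members and at 7.02 and 0.00304 in *Cdkn1a*-low cells. *Tstd1*, *Ptp4a3*, *Eif3j2* and *H2-T3* also differed among *Cdkn1a*-low cells, with log2 ratios between libraries of 3.15, 2.91, 2.66 and -5.26. *Itln1* differed little there, at 0.526 and 0.583, against 0.139 and 1.34 in members. For the remaining genes at these ends the levels of both libraries in *Cdkn1a*-low cells are not given here. *Apoa4*, an apolipoprotein of enterocytes, stood at 4.42 and 0.493. Other enterocyte genes went either way between the libraries, with *Prap1* at 14.3 and 6.58 and *Gsta1*, a glutathione transferase, at 11.4 and 25.5. The interval lay above 0 for 13 of 27 measured enterocyte genes, against 35.6% of all genes. It lay below 0 for 10 of the 27, against 15.1% of all genes.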

How the data were processed

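Live cells of 1 control and 1 *Taf4*IEC enteroid culture were captured with 10X Genomics 3′ chemistry. The authors used mm10 and Cell Ranger 3.1, per the submitters' processing notes. Cells of fewer than 200 or more than 6000 genes, or with mitochondrial reads of 15% or more, were dropped by them per the methods, although no control cell had over 4999 genes (*Taf4*IEC up to 5997), and the deposited values are raw UMI counts. Genes listed in 1 file were set to 0 in the other.

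Limits were applied in Python (3.11.15) using scipy (1.17.1), pandas (2.3.3) and numpy (2.4.6). Counts were summed over the cells of a class per 10000 UMIs. Ratios were taken for genes with at least 200 UMIs over both classes, and 2-fold means a log2 ratio of at least 1 or at most -1. Differences of shares followed Newcombe. Doublets were predicted with Scrublet in scanpy 1.11.5, which called 10 control cells (0.390%) and 0 *Taf4*IEC cells, too few for the caller to have worked, so doublets were not removed. Ratio intervals were tested on class sums simulated with Poisson error, the error they assume. The simulation held no variation between cells, so it cannot tell how the intervals fare where a few cells hold most UMIs. Cells are not replicates, so no p-value was computed. Near copies (*Rnaset2b*, *Gm10260*, *Eif3j2*, *Ces1d*, *Ces1f*, *Gstm1*, *Gstm3*, *Cyp2c29*, *H2-T3*) are uncertain, since their reads may be split.

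The members, gene lists and alternatives were chosen with earlier results of these data known. Named genes are those of the rule, the markers, 2 to 4 genes per list with the most UMIs or extreme ratios, and the 10 highest and lowest ratios of the *Taf4*IEC and between-library comparisons. *Clu*, *Fxyd3* and *Lgals3* were named after their values were seen.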

Additional observations from a re-analysis of the deposited data

Results flagged for a closer look

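For 10 genes the log2 ratio of *Cdkn1a*-high to *Cdkn1a*-low cells had opposite signs in the libraries, with both intervals clear of 0. The difference between the libraries was not tested, as there was 1 library of each. Cyclin genes *Ccnd1* and *Ccnd2* were higher in *Taf4*IEC members (0.20 and 0.47) and lower in control members (-0.65 and -0.28). *Itln1*, a lectin of Paneth and goblet cells, was at 1.20 in the *Taf4*IEC library and -1.92 in the control, and 48.4% of its UMIs in *Taf4*IEC members came from 5 cells. The other 7 were lower in *Taf4*IEC and higher in control members. *Neurog3* was at -2.36 and 1.17, and *Selenom*, a selenoprotein of the endoplasmic reticulum, at -1.82 and 0.76. *Gadd45g* was at -1.38 and 0.38, *Fxyd3*, a regulator of the sodium pump, at -0.95 and 0.76, and the transcription factor gene *Klf4* at -0.50 and 0.33. The galectin gene *Lgals3* was at -0.49 and 1.84, and the goblet gene *Spink4* at -0.36 and 0.28. All UMIs of *Neurog3* in *Taf4*IEC members came from 3 cells, and 72.6% of those of *Lgals3* in control members from 5 cells. The opposition ended under some alternatives. The *Taf4*IEC ratio turned to -1.45 for *Itln1* and 0.15 for *Lgals3* with a *Cdkn1a* minimum of 5, to 0.78 for *Lgals3* with a minimum of 2, and to -0.27 for *Ccnd1* and 0.35 for *Lgals3* without cells of 5000 or more genes. The control ratio turned to -0.44 for *Neurog3*, -0.20 for *Selenom* and -0.39 for *Spink4* with cells thinned to 5000 UMIs, and to 0.31 for *Ccnd1* and 0.25 for *Ccnd2* without cells of at least 40 of the enterocyte list. For *Gadd45g*, *Fxyd3* and *Klf4* neither ratio turned in the alternatives where it was recomputed. An alternative that left a gene under the UMI filter gave no ratio for it. *Gadd45g* had 96 UMIs in members and 114 in *Cdkn1a*-low cells of the *Taf4*IEC library, just above that filter. Alternatives that remove counts, such as thinning, can therefore leave its direction untested.

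Cells under 5000 UMIs, which the rule leaves out, also differed in *Cdkn1a*. It stood at 2.84 per 10000 (2.56 to 3.15) over 1053 *Taf4*IEC cells and at 1.04 (0.834 to 1.27) over 575 control cells, with medians of 768 and 1272 UMIs per cell. The part of depth in this difference was not tested.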

How the results depend on the processing

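No paired analysis was possible because each condition had 1 library, and for the same reason no replicate could be left out. The share of *Cdkn1a*-high cells was higher in the *Taf4*IEC library under every alternative run. With a *Cdkn1a* minimum of 2 the shares were 10.4% in the control and 31.0% in *Taf4*IEC cells, and with a minimum of 5 they were 2.77% and 16.6%, a difference of 13.9 points. Thinning each cell to 5000 UMIs gave a difference of 16.4 points. With mitochondrial, ribosomal, *Gm42418* and *AY036118* genes out of the total the control share was 9.05%. The next alternatives were chosen after the data were seen. Without cells of 5000 or more genes the *Taf4*IEC share was 23.6%, and without cells of at least 40 of the enterocyte list the shares were 4.07% and 23.6%, with a p53 target median of 0.62 in the control. Over all alternatives the p53 target median lay from 0.21 to 0.51 for *Taf4*IEC and from 0.092 to 0.62 for control cells within a library, and from 0.98 to 1.40 between libraries.

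Counts of genes past 2-fold depended on depth and filter. They are given as higher and lower, for *Cdkn1a*-high over *Cdkn1a*-low cells in the *Taf4*IEC library, then in the control, then for *Taf4*IEC over control in members. A filter of 50 UMIs gave 155 and 249, 328 and 498, and 512 and 230. No filter gave 513 and 925, 1104 and 930, and 1101 and 872. Thinning gave 24 and 2, 51 and 12, and 28 and 14, since fewer genes reach 200 UMIs. A minimum of 2 gave 167 and 85 in the *Taf4*IEC library and 67 lower in the control. A minimum of 5 gave 470 lower in the control. The smaller total gave 117 higher in the *Taf4*IEC library and 95 and 77 in the control. Under 5000 genes there were 23 lower in the *Taf4*IEC library and 48 higher between libraries. Under 40 of the enterocyte list there were 21 and 12, 41 and 29, and 48 lower between libraries.

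Of 1113 recomputed ratios of 62 named genes, 741 were classed as the same as in the main setting. Another 341 were classed as moved from the main value without a reversal, so the size of many ratios depended on the processing. In sign the ratios were steadier, as 1069 kept it and 31 with an interval clear of 0 turned. With a minimum of 2 these were *Lgals3* (0.78, *Taf4*IEC) and *Spink4* (-0.19, control). With a minimum of 5 they were *Fabp1* (-0.12), *Itln1* (-1.45), *Lgals3* (0.15) and *Gm26917* (-2.16) in the *Taf4*IEC library and *Ccng1* (-0.13), *Gdf15* (-0.86), *Mdm2* (-0.071), *Spink4* (-0.67), *Lgals3* (-1.05) and *Sprr1a* (-2.88) in the control. *Gm26917* turned with at least 2000 (-1.42) and 10000 (-0.0068) UMIs per cell. Thinning turned *Spink4* (-0.39), *Selenom* (-0.20) and *Neurog3* (-0.44) in the control. The smaller total turned *Ccng1* (-0.022), *Bax* (-0.048) and *Spink4* (-0.0064) in the control and *Lgr5* (-0.11) between libraries. Under 5000 genes turned *Ccnd1* (-0.27) and *Lgals3* (0.35) in the *Taf4*IEC library. Under 40 of the enterocyte list turned *Prap1* (-0.45) and *Gstm1* (-0.16) in the *Taf4*IEC library and *Rps27l* (0.081), *Ccnd1* (0.31), *Ccnd2* (0.25), *Apoa4* (-0.19), *Ddit3* (-0.041) and *Stmn1* (0.0023) in the control. The cause was not tested.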
